A study of Mus musculus with 10 samples.

Results

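The genes described here are 9 that carry the noradrenaline signal in brown adipose tissue from the cell surface to protein kinase A. They are the receptor genes Adrb1, Adrb3, Adra1a and Adra2a, the G protein gene Gnas, the adenylyl cyclase genes Adcy3 and Adcy6, and the protein kinase A genes Prkar2b and Prkaca. They were picked by gene symbol, with earlier results of these data known. All 9 were found among the 32889 genes of the expression table, and 8 of them passed the filter on low counts. Brown adipose tissue, the fat depot that burns fuel to make heat, was taken from wild-type C57BL/6J mice, and its RNA was sequenced in 10 libraries. The control group was 4 libraries from mice on regular chow. The obesity-prone group was 3 libraries and the obesity-resistant group 3 libraries, both from mice given a high-fat diet, so these 2 groups shared the diet. The labels give neither the age and sex of the mice nor how long the diet lasted. Nothing states that each library was made from its own animal, and the p-values then measure only the spread between these samples. There were 3 comparisons, given in 1 order throughout: the obesity-prone group against control (the first), the obesity-resistant group against control (the second), and the obesity-prone group against the obesity-resistant one (the third).

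Sympathetic nerves release noradrenaline onto brown adipocytes. Beta receptors there couple to the stimulatory G protein, whose alpha subunit is made by Gnas, and this subunit turns on adenylyl cyclases that convert ATP to the messenger cAMP. Alpha-2 receptors couple to inhibitory G proteins and lower cAMP, whereas alpha-1 receptors act mainly through calcium. cAMP binds the regulatory subunits of protein kinase A and frees its catalytic subunits, which phosphorylate lipolysis proteins and the transcription factor CREB. Beta-3 receptors, confined largely to fat cells in rodents, are the classical drug target of this route in brown fat.

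The libraries held between 35583997 and 37327770 counts. Brown adipocyte markers were present in all of them, with none of the 10 markers at 0, and their summed level lay between 9888 and 14130 CPM (counts scaled to a common, normalised library size) in 9 libraries. Obesity-prone replicate 3 stood apart at 4673 CPM. Its white adipocyte-selective markers summed to 1149 CPM, against 96.7 to 272 in the other libraries, and its erythrocyte markers to 22214 CPM, against 708 to 6160. Of the 10 white markers, 1 was at 0 throughout the obesity-resistant and 1 throughout the obesity-prone group. Ucp1, the uncoupling protein of brown fat, is 1 of the 10 brown adipocyte markers and made up 2882 of the 4673 CPM of obesity-prone replicate 3. This was the lowest Ucp1 level of the 10 libraries. Macrophage markers, all 10 of them detected, summed to 122 to 216 CPM in control, 123 to 148 in obesity-resistant and 177 to 500.3 in obesity-prone libraries. Skeletal muscle markers, all 13 detected, summed to 26.7 to 944 CPM in control, 26.6 to 791 in obesity-resistant and 24.6 to 93.1 in obesity-prone libraries. General adipocyte markers, all 10 detected, summed to 15987 to 18075 CPM in control, 14582 to 16271 in obesity-resistant and 12169 to 14212 in obesity-prone libraries. In this sum every obesity-prone library lay below every other. By gene, 6 of the 10 had positive and 4 negative log2 fold changes in obesity-prone against obesity-resistant libraries, with a median of 0.06. Progenitor and fibroblast markers summed to 591 to 1022 CPM in control and 860 to 2135 in obesity-prone libraries, and endothelial markers to 742 to 1312 and 1129 to 1335. Control replicate 4 had the highest erythrocyte sum of its group, 6160 CPM against 822 to 1221. In such tissue RNA, fewer cells of a type and less RNA per cell cannot be told apart.

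CREB binds the cAMP response element (CRE), TGACGTCA, and a shorter form of it, TGACG or CGTCA on the strand read. These letters were searched on both strands in the 250 bases before each transcript start in the RefSeq table of GRCm38.p6, where 6 of the 9 genes had an entry, with 12 starts. The full CRE stood before none of the 12 starts, and before 1.55% of all 32851 starts in the table. The short form, which the full CRE contains, stood before 6 of the 12 starts, from 4 genes, and before 17.8% of all starts. Of these 6, 2 starts of Gnas lie 19 bases apart and share 1 match, which was counted for each, and nearby starts were not merged among all starts either. G and C made up 50.8% to 80.0% of the bases searched before the 12 starts, and the shares were not matched for this. In a list of 14 cAMP-responsive genes of brown fat, 11 had an entry, 1 of them with the full CRE (Dio2, which activates thyroid hormone) and 8 with the short form. The promoters of Prkaca and Adrb1 are shown as the member whose level fell and as a receptor for comparison, and that of Nr4a2, a textbook cAMP-responsive gene, as an example with several matches. Each is written 5′ to 3′ on the gene's strand, and the capitals mark the short form. A match is a run of letters and not a measured binding site.
Prkaca, GRCm38.p6 chr8:83972728-83972977, plus strand: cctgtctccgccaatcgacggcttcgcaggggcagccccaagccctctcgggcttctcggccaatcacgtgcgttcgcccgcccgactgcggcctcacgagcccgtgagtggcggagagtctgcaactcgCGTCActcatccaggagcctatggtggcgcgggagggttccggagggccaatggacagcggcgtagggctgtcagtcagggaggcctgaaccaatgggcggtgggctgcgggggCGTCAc
Adrb1, GRCm38.p6 chr19:56721867-56722116, plus strand: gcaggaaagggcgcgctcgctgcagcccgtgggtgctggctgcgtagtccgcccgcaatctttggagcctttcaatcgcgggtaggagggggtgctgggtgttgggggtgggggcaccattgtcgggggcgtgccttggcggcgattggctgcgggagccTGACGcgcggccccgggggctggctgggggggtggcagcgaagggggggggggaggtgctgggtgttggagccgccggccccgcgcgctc
Nr4a2, GRCm38.p6 chr2:57124004-57124253, minus strand: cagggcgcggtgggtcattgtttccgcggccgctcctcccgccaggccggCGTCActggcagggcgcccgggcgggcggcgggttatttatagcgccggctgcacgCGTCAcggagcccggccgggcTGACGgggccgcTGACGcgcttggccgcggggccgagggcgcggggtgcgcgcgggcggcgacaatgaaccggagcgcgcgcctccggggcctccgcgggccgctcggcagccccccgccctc
The capitals begin 120 and 6 bases upstream of the start of Prkaca, 90 bases upstream of that of Adrb1, and 200, 144, 123 and 111 bases upstream of that of Nr4a2.

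Levels of different genes were compared in FPKM, which divides by transcript length. In control libraries the order ran from Gnas at 1629 ± 130.1 FPKM (SD, n = 4) through Prkar2b at 352 ± 26.0, Prkaca at 176 ± 16.1, Adcy3 at 103 ± 32.5, Adrb3 at 68.4 ± 7.91, Adra1a at 45.8 ± 6.98 and Adcy6 at 45.2 ± 3.12 to Adrb1 at 7.79 ± 2.10. Adra2a was last at 0.0575 ± 0.0457 FPKM. Neighbours in this order had ranges that did not overlap, except Adcy3 with Adrb3 and Adra1a with Adcy6. Gnas and Prkar2b held the first and second places in all 3 groups, and Adrb1 and Adra2a the last. The middle of the order differed between groups. Adrb3 was the fifth of the 9 in control libraries and in obesity-resistant libraries, where it was at 122 ± 19.9 FPKM (SD, n = 3). In obesity-prone libraries it was the third, at 151 ± 14.2 FPKM (SD, n = 3), above Prkaca and with no overlap with it.

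**Figure D1:**
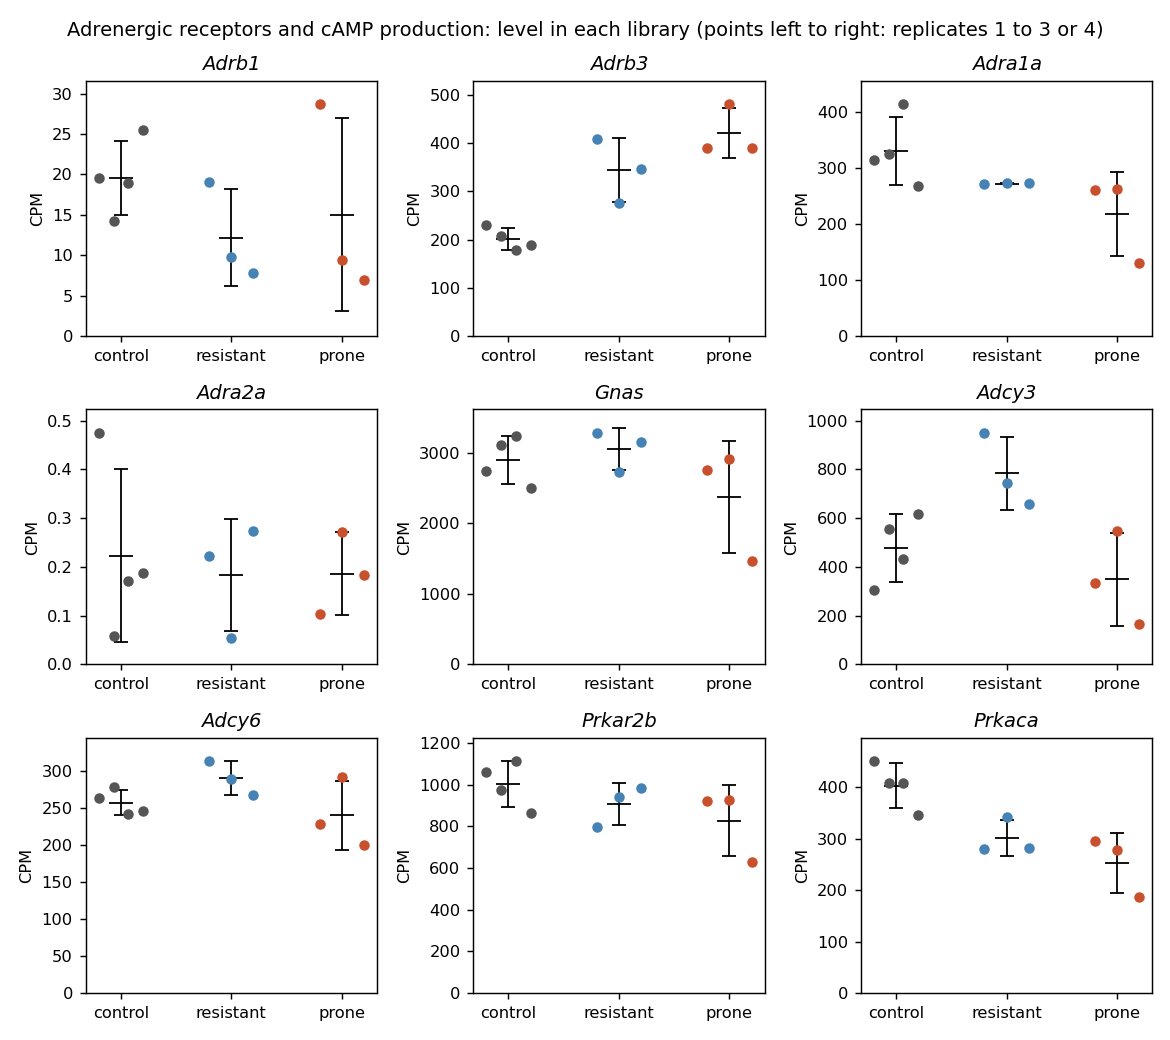
Level of each of the 9 genes in every library, in CPM on a linear axis that starts at 0, with the group mean and SD as bars (resistant and prone stand for obesity-resistant and obesity-prone; n = 4, 3 and 3). The Adrb3 panel shows the high-fat diet libraries from 277 CPM upward and the control libraries at 229.6 CPM or less, and Prkaca shows the reverse placing.

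Adrb3, the beta-3 receptor (gene 11556, GRCm38.p6 chr8:27225776-27230845), rose in obesity-prone against control libraries. Its level was 229.6, 207, 179 and 189 CPM in control libraries 1 to 4. It was 408, 277 and 348 CPM in obesity-resistant and 391, 481 and 391 CPM in obesity-prone libraries. Every high-fat diet library lay above every control library, and the 2 high-fat diet groups overlapped. The log2 fold change of obesity-prone against control libraries was 1.07 ± 0.15 (SE), a 2.09-fold higher level, with an adjusted p of 0.0108 by edgeR's quasi-likelihood test with Benjamini-Hochberg adjustment. It was past the threshold of 0.05 in each of the 10 fits that left out 1 library, with log2 fold changes from 0.96 to 1.14, and in all 11 other alternatives. Without obesity-prone replicate 3 the value was 1.12 (adjusted p = 0.0178). The obesity-resistant libraries stood 0.78 ± 0.15 above control on the log2 scale, and this missed the threshold (edgeR adjusted p = 0.0661). That comparison passed without control replicate 4 (0.75, edgeR adjusted p = 0.0409), without obesity-prone replicate 2 (0.78, 0.0450) or replicate 3 (0.78, 0.0401), and by DESeq2 (0.78, 0.000215). It also passed with only those groups fitted (edgeR adjusted p = 0.0361), and without obesity-prone replicate 3 and control replicate 4 together (0.0217). Between the obesity-prone and obesity-resistant groups the difference was 0.29 ± 0.16 (edgeR adjusted p = 0.408). An antisense gene, Gm45470, overlaps Adrb3, and no strand setting is stated for the counts. Gm45470 itself was counted at 6.40 to 14.2 CPM.

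Adrb1, the beta-1 receptor found on many cells of the tissue (gene 11554, chr19:56722117-56725150), had a lower level than Adrb3 in FPKM and a wider spread. In CPM it measured 19.6, 14.3, 19.0 and 25.5 CPM in control, 19.0, 9.75 and 7.79 CPM in obesity-resistant and 28.7, 9.44 and 6.90 CPM in obesity-prone libraries. Replicate 1 was the highest library in each of the high-fat diet groups, and these groups overlapped control. None of its comparisons passed the threshold. The log2 fold change was -0.38 ± 0.47 (SE) for obesity-prone against control (edgeR adjusted p = 0.634), and it was -1.26 (0.0889) without obesity-prone replicate 1. It was -0.68 ± 0.48 for obesity-resistant against control (edgeR adjusted p = 0.493). For obesity-prone against obesity-resistant it was 0.30 ± 0.51 (0.799), and it turned to -0.58 without obesity-prone replicate 1.

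As a share of the summed FPKM of Adrb1 and Adrb3, Adrb3 made up 86.4% to 92.6% in control libraries. The share was 94.9% to 97.5% in obesity-resistant libraries, all above control. It was 92.2% to 98.0% in obesity-prone libraries, where replicate 1, the library with the highest Adrb1, lay below the highest control library. The sum of both genes was 76.2 ± 8.24 FPKM (SD, n = 4) in control, 127 ± 21.6 (n = 3) in obesity-resistant and 157 ± 12.9 (n = 3) in obesity-prone libraries. These shares, and the family sums and ratios further on, were chosen after their values were seen and have no test.

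Adra1a, the alpha-1A receptor that signals through calcium (gene 11549, chr14:66635251-66771240), made up most of the alpha receptor RNA. Its level was 314, 326, 414 and 268 CPM in control, 271, 273 and 273 in obesity-resistant and 260.3, 263 and 131 in obesity-prone libraries. All obesity-prone libraries lay below all control libraries and below all obesity-resistant libraries, with replicate 3 far under the other 2. In FPKM neither separation held, since obesity-prone replicate 1 at 38.5 lay above control replicate 4 at 37.5 and obesity-resistant replicate 1 at 36.3. The log2 fold change of obesity-prone against control was -0.60 ± 0.23 (SE) and missed the threshold (edgeR adjusted p = 0.125). Without obesity-prone replicate 3 it was -0.34 (edgeR adjusted p = 0.206), and it passed the threshold when control replicate 4 was left out as well (-0.42, 0.0439). Obesity-prone replicate 3 also had the lowest brown adipocyte marker sum, whose part in the levels of Adra1a, Gnas and Prkaca was not tested. The obesity-resistant libraries stood -0.28 ± 0.23 from control (0.555). The obesity-prone libraries stood -0.32 ± 0.24 from the obesity-resistant libraries (edgeR adjusted p = 0.537), and -0.06 without obesity-prone replicate 3. Adra1a held 87.0% to 90.1% of summed alpha receptor FPKM in control, 79.7% to 85.6% in obesity-resistant and 80.5% to 85.9% in obesity-prone libraries. Nearly all the rest was Adra1d, another alpha-1 receptor, at 9.23% to 12.1%, 13.5% to 19.7% and 13.4% to 17.7%. In CPM, Adra1d was 13.3 ± 2.53 (SD, n = 4), 16.9 ± 3.95 (n = 3) and 13.1 ± 3.25 (n = 3) in the same order of groups.

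The ratio of Adrb3 to Adra1a in FPKM was 1.08 to 1.81 in control libraries. It was 2.63 to 3.90 in obesity-resistant and 3.71 to 7.41 in obesity-prone libraries, the highest being obesity-prone replicate 3. Neither high-fat diet group overlapped control in this ratio. Adra2a, the alpha-2A receptor that inhibits cyclases (gene 11551, chr19:54045259-54048982), was barely detected. It measured 0.475, 0.0579, 0.171 and 0.187 CPM in control, 0.222, 0.0537 and 0.274 in obesity-resistant and 0.103, 0.272 and 0.184 in obesity-prone libraries. Its groups overlapped, and it did not pass the filter on low counts, so the fit of the 10 libraries with that filter tested no comparison of it. Fits with no filter, and some that left out libraries, included Adra2a and did not call it. Adra2c, another alpha-2 receptor, was likewise low at 0.465 ± 0.202 CPM (SD, n = 4), 0.329 ± 0.0740 (n = 3) and 0.388 ± 0.0306 (n = 3) in control, obesity-resistant and obesity-prone libraries. Of the 4 other alpha receptor genes tested, edgeR and DESeq2 called none in any comparison, and none had an unadjusted p below 0.05. The one with the lowest p, Adra2b, an alpha-2 receptor, was 0.517 ± 0.0724 CPM (SD, n = 4), 0.456 ± 0.0106 (n = 3) and 0.325 ± 0.142 (n = 3) in the same order of groups.

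**Figure D2:**
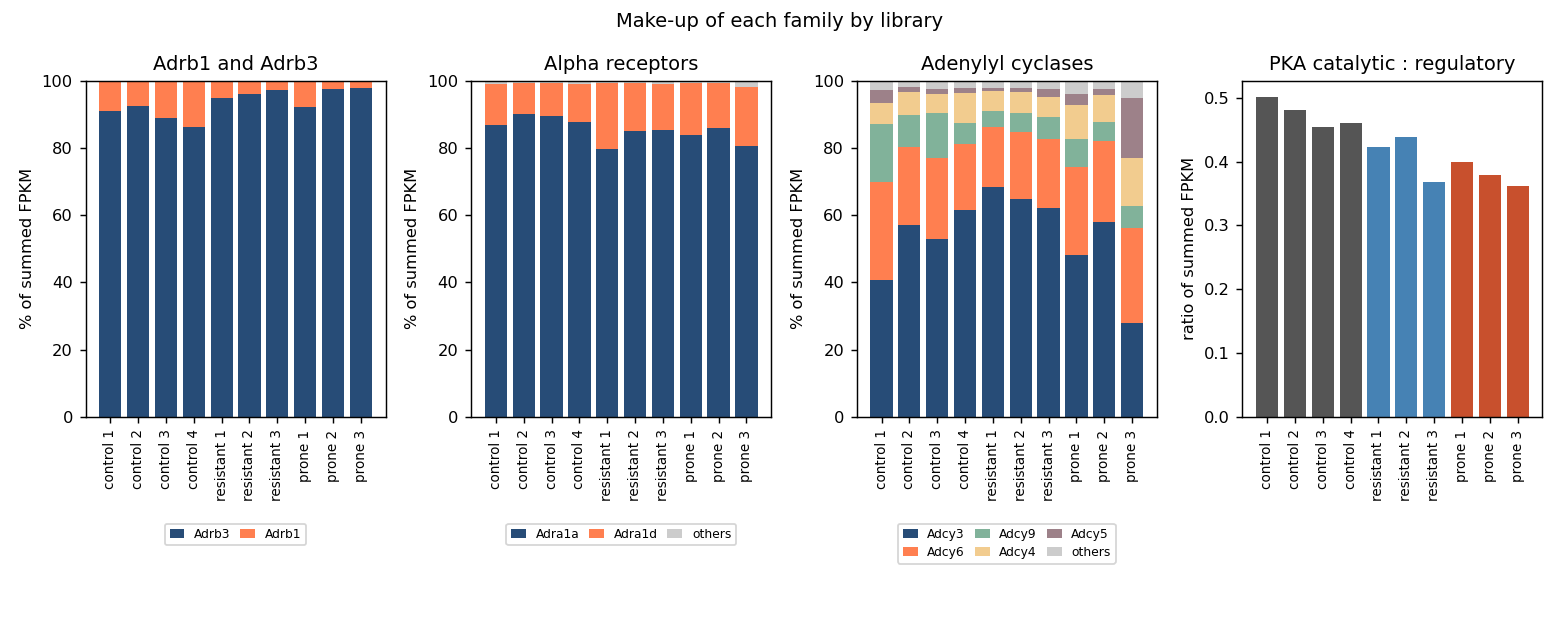
Make-up of Adrb1 with Adrb3, of the alpha receptors and of the adenylyl cyclases in each library, as a percentage of the summed FPKM of the genes in each panel, and the ratio of summed catalytic to summed regulatory protein kinase A FPKM (resistant and prone stand for obesity-resistant and obesity-prone). Adrb3 takes 86.4% to 92.6% of the FPKM summed over Adrb1 and Adrb3 in control libraries and at least 92.2% in the others, and the ratio is 0.454 or more in control and 0.438 or less in the others.

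Gnas, which encodes the stimulatory alpha subunit (gene 14683, chr2:174284320-174346744), passed the threshold in no comparison. It read 2743, 3108, 3243 and 2501 CPM in control, 3285, 2724 and 3149.7 in obesity-resistant and 2755, 2907 and 1464 in obesity-prone libraries. Obesity-prone replicate 3 was below all other libraries, and the remaining values of the 3 groups overlapped. The log2 fold change of obesity-prone against control was -0.29 ± 0.23 (SE; edgeR adjusted p = 0.441), and -0.03 without that library. It was 0.07 ± 0.23 in the second comparison (0.900) and -0.36 ± 0.24 in the third (edgeR adjusted p = 0.488). The Gnas locus is imprinted and has several start sites whose transcripts differ, and the deposited counts are per gene, so those transcripts were not separated here. Of 14 other G protein subunit genes tested, edgeR called none in any comparison. At an unadjusted p below 0.05 there were 6, 3 and 5 in the 3 comparisons, beside 28.1%, 18.0% and 15.4% of all genes. DESeq2 called 5, 1 and 1, beside 15.8%, 5.80% and 2.88% of all genes. The one with the lowest p, Gng2, a gamma subunit, averaged 4.60 ± 0.727 CPM in control (SD, n = 4), 3.83 ± 0.396 in obesity-resistant (n = 3) and 7.64 ± 3.52 in obesity-prone libraries (n = 3).

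Adcy3, a calcium-regulated adenylyl cyclase (gene 104111, chr12:4133116-4213525), was highest in the obesity-resistant libraries. Its level was 306, 555, 432 and 616 CPM in control, 950.2, 743 and 657 in obesity-resistant and 334, 546 and 167 in obesity-prone libraries. All 3 obesity-resistant libraries lay above all 7 others, and the obesity-prone and control groups overlapped. No comparison passed the threshold. Obesity-prone against obesity-resistant gave a log2 fold change of -1.17 ± 0.39 (SE; unadjusted p = 0.0126, edgeR adjusted p = 0.247). Without obesity-prone replicate 2 it was -1.65 (edgeR adjusted p = 0.0424), and without obesity-prone replicate 3 it was -0.83 (0.611). The obesity-resistant group against control gave 0.71 ± 0.35 (edgeR adjusted p = 0.321) and the obesity-prone group against control -0.45 ± 0.36 (0.439). The share of Adcy3 in summed cyclase FPKM was 40.7% to 61.7% in control, 62.2% to 68.5% in obesity-resistant and 28.1% to 58.0% in obesity-prone libraries. Cenpo, on the opposite strand, overlaps Adcy3 and was counted at 4.28 to 8.29 CPM.

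Adcy6, a cyclase that calcium inhibits (gene 11512, chr15:98589978-98610287), varied least among the 9 in control libraries, with a coefficient of variation of 6.45%. It read 264, 278, 242 and 246 CPM in control, 314, 289.7 and 268 in obesity-resistant and 229, 292 and 200.4 in obesity-prone libraries. The groups overlapped in every comparison. Log2 fold changes were -0.10 ± 0.13 (SE), 0.17 ± 0.13 and -0.27 ± 0.14 in the first, the second and the third comparison (edgeR adjusted p = 0.657, 0.523 and 0.375). The sign of the first turned to 0.017 without obesity-prone replicate 3. Of 8 other cyclase genes tested, 3 had an unadjusted p below 0.05 in obesity-prone against control libraries (37.5%), beside 28.1% of all genes. Among them, Adcy7 rose by 0.71 ± 0.18 in that comparison (edgeR adjusted p = 0.0450), from 11.1 ± 1.79 CPM (SD, n = 4) to 18.2 ± 4.82 (n = 3). All 10 macrophage markers had positive log2 fold changes in that comparison, with 2 past the threshold, and their part in the rise of Adcy7 was not tested. Adcy9 fell by 0.84 ± 0.22 (edgeR adjusted p = 0.0495), from 98.6 ± 26.7 to 55.2 ± 12.4 CPM. In CPM the obesity-prone and control groups overlapped for both genes. In FPKM Adcy7 was 2.80 to 3.80 in control, 4.61 to 4.84 in obesity-resistant and 3.81 to 6.30 in obesity-prone libraries. Both calls held in 2 of the 10 fits that left out 1 library, those without control replicate 4 (0.0193 and 0.00755) and without obesity-prone replicate 2 (0.0145 and 0.0492). Adcy5 measured 113.9 CPM in obesity-prone replicate 3 and 10.1 to 28.6 CPM elsewhere, and its difference from control missed the threshold (1.60 ± 0.62, edgeR adjusted p = 0.130). Adcy4 averaged 48.7 ± 15.5, 56.5 ± 8.05 and 59.6 ± 4.78 CPM in control, obesity-resistant and obesity-prone libraries.

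Prkaca, the main catalytic subunit of protein kinase A (gene 18747, chr8:83972978-83996444), fell in obesity-prone against control libraries. It measured 451, 408, 408 and 346 CPM in control, 279.6, 342 and 283 in obesity-resistant and 296, 278 and 186 in obesity-prone libraries. On this scale every high-fat diet library lay below every control library, and the 2 high-fat diet groups overlapped. In FPKM, obesity-resistant replicate 2 at 162 lay above control replicate 4 at 159. Obesity-prone against control gave a log2 fold change of -0.67 ± 0.17 (SE), which passed the threshold (edgeR adjusted p = 0.0439). It passed in 2 of the 10 fits that left out 1 library, those without control replicate 4 (-0.74, edgeR adjusted p = 0.0249) and without obesity-prone replicate 2 (-0.74, 0.0437). In the other 8 the adjusted p lay between 0.0585 and 0.112. Without obesity-prone replicate 3 the log2 fold change was -0.49 (edgeR adjusted p = 0.0677). Of the 11 other alternatives it passed in 6 and missed the threshold with limma on FPKM, with only those groups fitted and with a skeletal muscle term. The second comparison gave -0.42 ± 0.17 (edgeR adjusted p = 0.230) and the third -0.25 ± 0.18 (0.510). The second passed with obesity-prone replicate 3 and control replicate 4 both left out (-0.48, edgeR adjusted p = 0.0158). Adipocyte markers moved the same way as Prkaca in obesity-prone against control libraries. Of 10 general adipocyte markers 9 had negative log2 fold changes, with 2 past the threshold and a median of -0.47, and of 10 brown adipocyte markers 9 were negative, with none past it and a median of -0.49. In obesity-resistant against control libraries 8 of 10 general adipocyte markers were negative and 2 positive, with a median of -0.33. Of the brown adipocyte markers 4 were negative there and 6 positive, with a median of 0.12. The part of both marker lists in the fall of Prkaca was not tested.

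Prkar2b, the regulatory subunit typical of fat cells (gene 19088, chr12:31958450-32061648), passed no threshold. Its level was 1060.4, 976, 1114 and 864 CPM in control, 797, 941 and 986 in obesity-resistant and 923, 927 and 629.7 in obesity-prone libraries. Obesity-prone replicate 3 was again the lowest, and the groups overlapped. Log2 fold changes were -0.28 ± 0.17 (SE), -0.14 ± 0.17 and -0.14 ± 0.18 in the first, the second and the third comparison (edgeR adjusted p = 0.295, 0.693 and 0.730). The last turned to 0.028 without obesity-prone replicate 3. Prkar2b held 82.5% to 87.4%, 80.1% to 84.5% and 80.9% to 85.0% of regulatory subunit FPKM in control, obesity-resistant and obesity-prone libraries. Prkaca held 89.0% to 91.1%, 85.3% to 88.2% and 82.6% to 86.9% of catalytic subunit FPKM, with Prkacb as the remainder. The ratio of summed catalytic to summed regulatory FPKM was 0.501, 0.481, 0.454 and 0.461 in control libraries. It was 0.423, 0.438 and 0.369 in obesity-resistant and 0.398, 0.379 and 0.362 in obesity-prone libraries, all below control.

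Among 13 other genes for protein kinase A subunits, inhibitors and anchors that were tested, 2 rose in obesity-prone against control libraries and none fell. At an unadjusted p below 0.05 there were 4 of the 13, 30.8%, beside 28.1% of all genes. Akap12, a scaffold that anchors the kinase near the beta receptors, rose by 0.85 ± 0.18 (SE) on the log2 scale (edgeR adjusted p = 0.0265), from 43.2 ± 10.1 CPM (SD, n = 4) to 78.1 ± 13.3 (n = 3). Pkig, an inhibitor of the catalytic subunit, rose by 0.52 ± 0.14 (edgeR adjusted p = 0.0493), from 10.6 ± 1.81 to 15.2 ± 1.76 CPM. The obesity-resistant libraries lay between them at 54.8 ± 3.47 CPM for Akap12 and 12.4 ± 0.862 for Pkig (n = 3). Many markers of other cell types were also higher in the same comparison. All 10 macrophage markers and 9 of 10 endothelial markers (median 0.32, none past the threshold) had positive log2 fold changes, as did 6 of 10 progenitor and fibroblast markers (median 0.43, 1 past it), and their part in both rises was not tested. In obesity-resistant against control libraries Akap12 (0.34) and Pkig (0.23) were positive without passing the threshold. There 8 of 10 macrophage and 9 of 10 progenitor and fibroblast markers were negative, and 7 of 10 endothelial markers were positive. Without obesity-prone replicate 3 the edgeR adjusted p was 0.0695 for Akap12 and 0.131 for Pkig. Over the 10 fits that left out 1 library, the call of Akap12 held in 5 (without control replicate 4, obesity-prone replicate 2 or any 1 obesity-resistant library) and that of Pkig in 2 (without control replicate 4 or obesity-prone replicate 2). Prkar1a, a regulatory subunit of most tissues, was 171 ± 14.9 CPM (SD, n = 4), 175 ± 7.80 (n = 3) and 150.2 ± 8.90 (n = 3) in control, obesity-resistant and obesity-prone libraries. The anchors Akap1, at mitochondria, and Akap13 did not pass the threshold either, at 404 ± 44.3, 428 ± 37.2 and 355 ± 114 CPM and at 263 ± 21.6, 246 ± 33.2 and 294 ± 1.65 CPM.

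**Figure D3:**
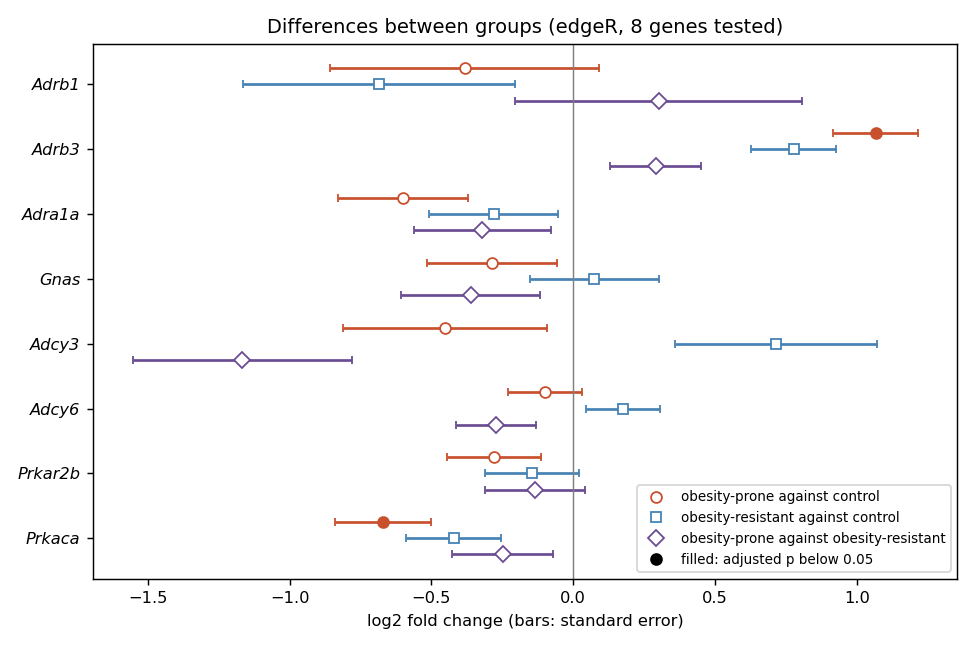
Log2 fold change with SE of the 8 genes that passed the filter, in each of the 3 comparisons from the edgeR fit. Adrb3 at 1.07 and Prkaca at -0.67, both in obesity-prone against control, are the values past the adjusted threshold of 0.05.

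Of the 8 genes tested, 1 rose (Adrb3) and 1 fell (Prkaca) in obesity-prone against control libraries, while 3.71% of the 19676 genes tested rose and 3.29% fell. In CPM the groups did not overlap for 1 gene above control (Adrb3) and 2 below (Adra1a and Prkaca), where 9.66% and 10.6% of all genes did the same, 20.3% together. In obesity-resistant against control libraries none of the 8 passed the threshold in edgeR, where 0.142% of all genes did and 0.0966% rose. At an unadjusted p below 0.05 there were 2 of the 8, Adrb3 (0.000366) and Prkaca (0.0301), and 18.0% of all genes. DESeq2 called 1 of the 8, Adrb3, and 1142 genes in all. Groups did not overlap for 2 genes above (Adrb3 and Adcy3) and 1 below (Prkaca), against 10.5% and 9.71% of all genes, 20.2% together. In obesity-prone against obesity-resistant libraries edgeR called none of the 8 and 0.00% of all genes, and DESeq2 none of the 8 and 567 genes. At an unadjusted p below 0.05 there was 1 of the 8, Adcy3, and 15.4% of all genes. Groups did not overlap for 2 genes below (Adra1a and Adcy3) and none above, against 9.75% and 9.99%. The median log2 fold change of the 8 was -0.33, -0.04 and -0.26 in the 3 comparisons in that order, and that of all genes 0.00, -0.01 and -0.01. The first and second comparison share the control libraries and are not independent of each other.

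The wider route was described by 11 lists of 123 genes, of which 111 were tested. Like the 9 genes, the lists were chosen with earlier results of these data known. Their shares beside those of all genes are therefore descriptions and not tests. In obesity-prone against control libraries 5 rose and 5 fell, 9.01% of them, beside 7.00% of all genes. In obesity-resistant against control libraries 1 rose and none fell, 0.901% of them, and in obesity-prone against obesity-resistant libraries edgeR called none. At an unadjusted p below 0.05 there were 33, 20 and 27 in the 3 comparisons, which is 29.7%, 18.0% and 24.3% of the 111, beside 28.1%, 18.0% and 15.4% of all genes. DESeq2 called 20, 9 and 5, which is 18.0%, 8.11% and 4.50%, beside 15.8%, 5.80% and 2.88% of all genes. Among 14 receptor kinases, arrestins and RGS proteins, which shut receptor and G protein signals off, 2 fell and none rose in obesity-prone against control libraries. At an unadjusted p below 0.05 there were 4 of the 14, 28.6%, beside 28.1% of all genes. In the second and the third comparison there were 1 and 5 of the 14, 7.14% and 35.7%, beside 18.0% and 15.4% of all genes. Rgs2, which turns off Gq and dampens cyclases, was 166, 127, 134 and 64.5 CPM in control, 45.7, 41.1 and 39.3 in obesity-resistant and 27.7, 62.5 and 23.3 in obesity-prone libraries. All high-fat diet libraries lay below all control libraries. Its log2 fold changes were -1.70 ± 0.38 (SE; edgeR adjusted p = 0.0316) for obesity-prone and -1.55 ± 0.38 (0.0972) for obesity-resistant against control. Rgs7, of the RGS family that acts on inhibitory G proteins, fell by 0.76 ± 0.19 in obesity-prone against control libraries (edgeR adjusted p = 0.0440), from 824 ± 106 CPM (SD, n = 4) to 485 ± 140.0 (n = 3), while obesity-resistant libraries averaged 769 ± 28.7 (n = 3). Both calls held in 2 of the 10 fits that left out 1 library, without control replicate 4 (0.00971 and 0.0323) and without obesity-prone replicate 2 (0.0129 and 0.0211).

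Of the 14 cAMP-responsive genes, 1 rose and 2 fell in obesity-prone against control libraries, where 3.71% of all genes rose and 3.29% fell. At an unadjusted p below 0.05 there were 4 of the 14, 28.6%, beside 28.1% of all genes. Their median log2 fold change was -0.43. Bmp8b, a secreted factor of brown fat, measured 0.280, 0.406, 0.114 and 0.348 CPM in control, 3.56, 2.50 and 2.47 in obesity-resistant and 2.66, 3.64 and 0.842 in obesity-prone libraries. Every high-fat diet library was above every control library in CPM, all at low levels. In FPKM obesity-prone replicate 3 at 0.530 lay below control replicate 2 at 0.600. It rose by 3.04 ± 0.50 (SE) in obesity-prone (edgeR adjusted p = 0.0148) and by 3.29 ± 0.50 in obesity-resistant libraries (0.0411) against control. The first call was lost in 1 of the 10 fits that left out 1 library, without control replicate 3, and the second held in 3 (without control replicate 4, obesity-prone replicate 2 or replicate 3), with edgeR adjusted p up to 0.0528 and 0.209. On log2(FPKM + 0.5) limma called neither difference, and they were smaller, at 0.82 (adjusted p = 0.0612) and 0.92 (0.105). With 0.1 added they were 1.29 (limma adjusted p = 0.0587) and 1.45 (0.1004). The first call was also lost with only those groups fitted (edgeR adjusted p = 0.0569). Nr4a2, the nuclear receptor whose promoter is shown above, was 24.5, 34.1, 43.9 and 66.9 CPM in control, 32.8, 31.0 and 17.8 in obesity-resistant and 10.5, 20.4 and 10.3 in obesity-prone libraries. It fell by 1.62 ± 0.38 in obesity-prone against control libraries (edgeR adjusted p = 0.0378). Irf4, a partner of the coactivator PGC-1alpha in brown fat, was 31.4, 23.8, 35.3 and 8.33 CPM in control, 14.8, 8.78 and 9.13 in obesity-resistant and 6.42, 7.23 and 5.90 in obesity-prone libraries. It fell by 1.92 ± 0.42 (edgeR adjusted p = 0.0307), with control replicate 4 nearest to the high-fat diet groups. Both calls held in 4 of the 10 fits that left out 1 library. These were the fits without control replicate 4, obesity-prone replicate 2 or obesity-resistant replicate 3, and, for Nr4a2, without control replicate 1 or, for Irf4, without obesity-resistant replicate 1. Ucp1 averaged 8667 ± 1731 CPM (SD, n = 4), 9182 ± 551 (n = 3) and 6053 ± 2867 (n = 3) in control, obesity-resistant and obesity-prone libraries and passed no threshold.

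**Figure D4:**
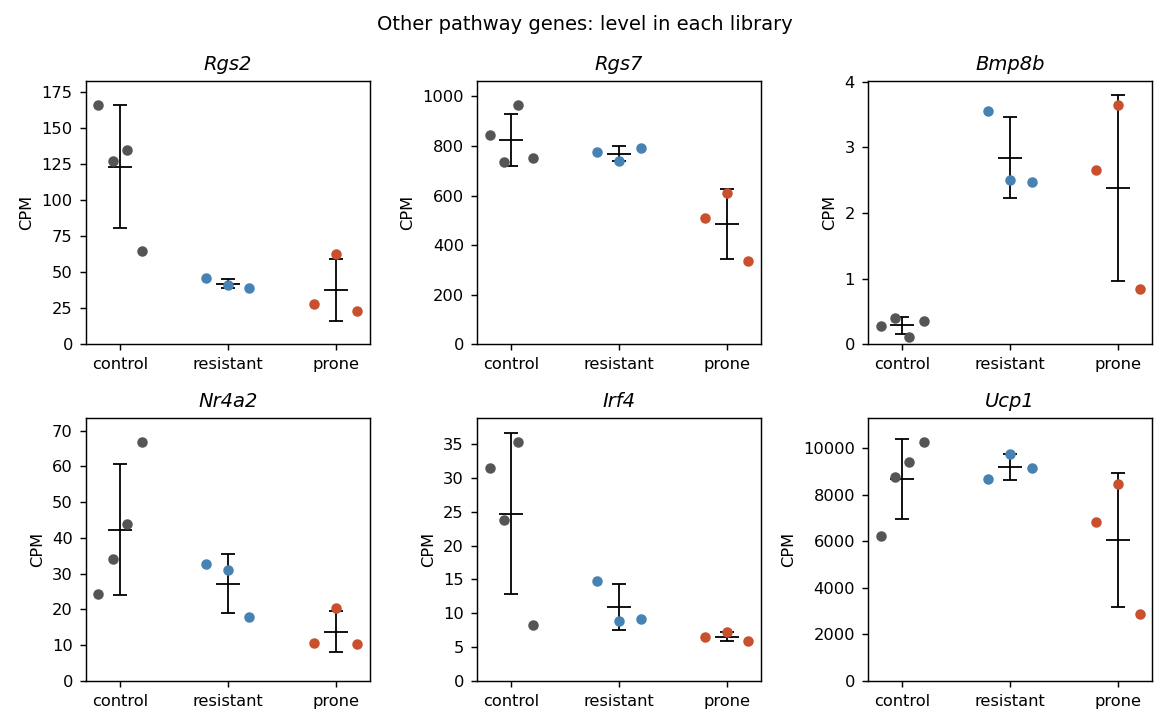
Level in every library of 5 other genes of the route that changed and of Ucp1, in CPM on linear axes that start at 0, with the group mean and SD (resistant and prone stand for obesity-resistant and obesity-prone; n = 4, 3 and 3). On this scale Rgs2 lies lower and Bmp8b higher in every high-fat diet library than in every control library, and Rgs7 lies at 335 to 612 CPM in the obesity-prone libraries and at 735 or more in all others.

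The remaining lists had few or no calls. Among 4 tested genes of catecholamine synthesis, transport and breakdown, Maoa, which breaks down noradrenaline, rose by 0.68 ± 0.16 (SE) in obesity-prone against control libraries (edgeR adjusted p = 0.0403), from 11.3 ± 0.216 CPM (SD, n = 4) to 18.1 ± 5.07 (n = 3). Its call held in 2 of the 10 fits that left out 1 library, without control replicate 4 (0.0369) and without obesity-prone replicate 2 (0.00419). Of the 4 genes, 2, 2 and 3 had an unadjusted p below 0.05 in the 3 comparisons, beside 28.1%, 18.0% and 15.4% of all genes. DESeq2 called 1, 0 and 1 of the 4, beside 15.8%, 5.80% and 2.88% of all genes. None of 10 other Gs-coupled receptors, 10 other Gi-coupled receptors, 12 CREB family genes and 8 lipolysis proteins passed the threshold of edgeR in any comparison. At an unadjusted p below 0.05 there were, in the 3 comparisons, 4, 1 and 3 Gs-coupled receptors, 2, 5 and 3 Gi-coupled receptors, 3, 0 and 3 CREB family genes and 1, 2 and 0 lipolysis proteins. DESeq2 called 0, 0 and 1, then 2, 3 and 1, then 0 in each, and 0, 1 and 0 of them. Of all genes, 28.1%, 18.0% and 15.4% had such an unadjusted p in the 3 comparisons, and DESeq2 called 15.8%, 5.80% and 2.88%. The gene with the lowest p in each was given by the rule for named genes. Tshr, the thyrotropin receptor, was 14.0 ± 2.43, 10.4 ± 1.45 and 27.8 ± 24.0 CPM in control, obesity-resistant and obesity-prone libraries, with 55.6 CPM in obesity-prone replicate 3. Ffar4, a fatty acid receptor, was 19.1 ± 5.18, 46.4 ± 9.45 and 24.8 ± 6.14 CPM, and obesity-resistant against control gave a log2 fold change of 1.28 ± 0.24 (edgeR adjusted p = 0.0591). Creb3l1 was 6.09 ± 1.43, 4.92 ± 0.699 and 9.96 ± 5.57 CPM, and Cidec, a lipid droplet protein, 1124 ± 138, 816 ± 75.1 and 876 ± 196 CPM.

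**Figure D5:**
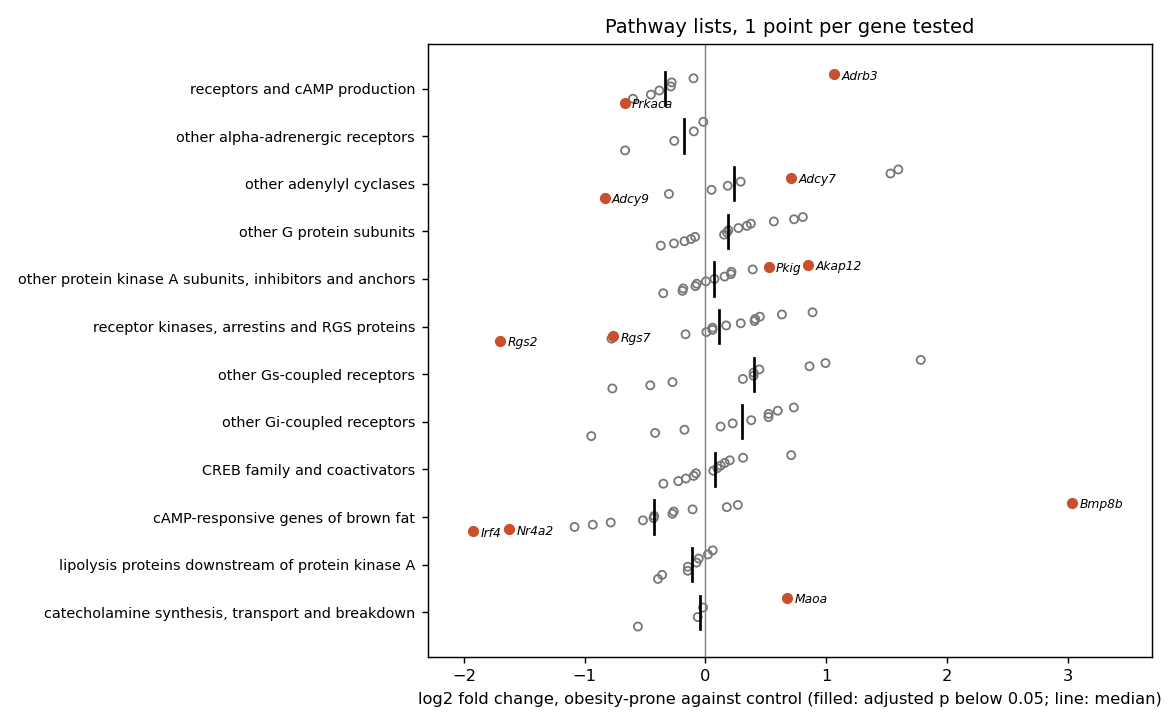
Log2 fold change of obesity-prone against control libraries for every tested gene of the 9 members and the 11 lists of the route, 1 row per list (the 9 in the top row), with each row's median as a black line and genes past the adjusted threshold of 0.05 filled and named. Adrb3 and Prkaca stand out among the members on opposite sides of 0, and Bmp8b at 3.04 is the farthest to the right.

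For each of the 8 genes tested, the protein-coding genes with the most similar log2 CPM over the 10 libraries were listed, from 12480 genes with a mean of at least 1 CPM. These Pearson correlations are descriptions, and all share the group differences and the library that stands apart. Adrb3 was most like Laptm4b (r = 0.971), Fam117b (0.965) and Smad4 (0.959). Prkaca was most like Ufc1 (r = 0.993), Psma6 (0.985) and Pmm2 (0.983), and Prkar2b most like Uxt (0.980), Commd3 (0.978) and Coq2 (0.978). The genes most like Adra1a were Pdha1 (r = 0.988), a subunit of pyruvate dehydrogenase, and Ndufa4 and Ndufs3 (0.987 each), respiratory chain subunits. Among those most like Gnas were Uqcrfs1 (0.982) and Gatd3a (0.981). For Adcy3 they were Hmox2 (0.979), Grtp1 (0.976) and Atp1b1 (0.974), for Adcy6 Zhx2 (0.960), Slc35e1 (0.929) and Zswim5 (0.928), and for Adrb1 Aff3 (0.914), Hdgfl2 (0.878) and Plxna1 (0.864).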

How the data were processed

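RNA of brown adipose tissue was sequenced in 10 libraries. Per the labels' protocols, the authors aligned reads with Bowtie2 2.2.5 to a gene set of the sequencing company and computed expression with RSEM 1.2.12. HISAT2 2.0.4 and GRCm38.p6 are named in the submitters' processing notes, and no strand setting is stated. The deposited table holds expected counts per gene as RSEM gave them to the authors, not normalised, and FPKM values made by the authors. Its 6 columns of group means were not used. Of the count values, 30.4% were not whole, and all were rounded here.

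The members and lists were chosen with earlier results of these data known. All genes were fitted in edgeR 4.0.16 (R 4.3.3) with TMM factors, filterByExpr (minimum count 10), 1 coefficient per group over the 10 libraries and a robust quasi-likelihood fit with 7 residual degrees of freedom. P-values were adjusted by Benjamini-Hochberg over 19676 genes, with a threshold of 0.05, and a gene is said to rise or fall only past it. CPM uses TMM-normalised library sizes. The fit was tested on simulated counts. Totals of 35583997 to 37327770 counts leave genes of few counts, such as Adra2a, imprecise. Groups came from the titles, with the 3 comparisons of obesity-prone, obesity-resistant and control libraries.

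Named genes were all members, of each list the genes called (at most 4 per comparison) or else the gene with the lowest p, the 3 highest by FPKM of the receptor, cyclase and kinase lists, Ucp1, and the 3 genes most like each member. Of 123 list genes 121 were found, and the other 2 are not analysed here. Results for some other genes that the rule covers are not reported here. Of 25017 numeric gene identifiers, 24350 matched RefSeq (GRCm38.p6), which gave positions and promoters. Alternatives were DESeq2 1.42.0, RLE factors, no filter, a filter of 1 CPM in 3 libraries, fitting just the pair of groups in question, a block for the replicate number, limma 3.58.1 on log2(FPKM + 0.5), on log2(FPKM + 0.1) and with no filter, and each library left out. Leaving out obesity-prone replicate 3 with control replicate 4, and a skeletal muscle marker term, were added after seeing the data.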

Additional observations from a re-analysis of the deposited data

Results flagged for a closer look

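Prkar1a, a regulatory subunit of protein kinase A, measured 149 CPM in control replicate 1, against 179, 179 and 179 CPM in the other 3 control libraries. It was the lowest control library by more than Dixon's test allows for 4 samples, with a gap of 0.982 of the group's range. In FPKM it was again the lowest, at 43.4 against 50.3 to 54.6, but the gap was 0.619 of the range, which the test allows. The test was run on 33 genes in CPM and in FPKM, and chance flags about 1 in 20 groups. In FPKM the control libraries of Akap13 also went past the limit, with a gap of 0.876 of the range, against 0.639 in CPM. The comparisons of Prkar1a missed the threshold.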

How the results depend on the processing

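Adrb3 stayed past the threshold in obesity-prone against control libraries in all 21 alternatives, and Prkaca in 8 of them. Of the 9 genes, obesity-prone against control had 1 called with only those groups fitted, with limma on log2(FPKM + 0.5), with 0.1 added or with no filter, and with the skeletal muscle term, 3 without obesity-prone replicate 3 and control replicate 4, and 1 to 2 with 1 library left out. Obesity-resistant against control had 1 called by DESeq2 and with only those groups fitted, 2 without that pair of libraries, and 0 to 1 with 1 library left out. Obesity-prone against obesity-resistant had 0 to 1.

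Genes called in all, obesity-prone against control, were 1377. They were 3111 by DESeq2, 66 with only those groups, 280 with limma and no filter, 2635 without obesity-prone replicate 3 and control replicate 4, 623 with the muscle term and 76 to 3040 with 1 library left out, the most without control replicate 4 and the fewest without control replicate 3. Obesity-resistant against control gave 28 genes, and 1142, 391, 8, 2212 and 55 under the same settings, 76 with no filter, 68 with the stricter filter and 3 to 864 with 1 library left out. Obesity-prone against obesity-resistant gave 0 genes, 567 by DESeq2 and 0 to 871 with 1 library left out, the most without obesity-prone replicate 2.

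Without obesity-prone replicate 3 and control replicate 4, Adrb1 and Adcy3 turned to 0.12 and 0.035 in obesity-prone against control, and Prkar2b to 0.021 in obesity-prone against obesity-resistant. With 1 library left out, Adrb1 ranged from -0.58 to 0.78 and Prkar2b from -0.23 to 0.028 in obesity-prone against obesity-resistant. In obesity-prone against control Adcy6 ranged from -0.26 to 0.017, Adrb1 from -1.26 to -0.04 and Adcy3 from -0.93 to -0.12. None of these passed the threshold, and the cause was not tested. The replicate block gave 382 genes in obesity-resistant against control and called the same number of the 9 genes, 2, 0 and 0. Same-numbered libraries of different groups correlated from -0.362 to 0.271. These were not set against differently numbered libraries, so whether the numbers pair the libraries was not tested.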
